A study of Mus musculus with 4 samples.

Results

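Gene expression was compared in C2C12 cells, a mouse myoblast line, to ask how the response to differentiation medium differed when the long noncoding RNA MUNC was depleted. For each gene the differentiating minus proliferating difference in control cells was subtracted from the same difference in siMUNC cells, on the log2 scale. This value, called the difference of effects below, is positive where siMUNC cells had the higher net change and negative where control cells had it. It was kept for genes whose highest value on any array reached the median of gene means (8.50), which 7968 of 14860 measured genes did. Just inside that level Tmem17 had a highest value of 8.499 and a difference of effects of 0.04, and just outside it Reep1 had 8.498 and -1.23.

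The study had 4 groups with 1 array each, all of the same line. They were siMUNC differentiating cells, siMUNC proliferating cells, control siRNA differentiating cells and control siRNA proliferating cells. Proliferating cells were grown in 10% fetal bovine serum. Differentiating cells were moved at 80% confluence to 2% horse serum and collected after 3 days. Each group is 1 culture of 1 line: the differences below have no replicates behind them, no test was run, and precision is limited by having 1 array per group. Differences are counted past 2-fold (an absolute log2 value of 1).

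Myoblasts leave the cell cycle when serum is withdrawn, switch on myogenin and the MEF2 factors, and then assemble sarcomeres and fuse into myotubes. MyoD and myogenin bind E-box sequences in muscle promoters. Genes of DNA replication and mitosis are held down in non-dividing cells by the pocket protein and DREAM complexes, which act through E2F, CHR and CCAAT elements. MUNC arises from an enhancer region upstream of Myod1, the gene that encodes MyoD.

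Of the genes kept, 236 were past 2-fold higher in the difference of effects (2.96%) and 142 past 2-fold lower (1.78%). A filter on the mean over the 4 arrays, in place of the highest, left 189 and 65 of them, so more of the lower than of the higher side passes only through its highest arrays. Past 4-fold were 8 genes higher (0.1%) and 36 lower (0.452%). Genes of the sarcomere, calcium release and muscle metabolism lists were 37 of the 142 on the lower side: they were higher in differentiating cells, by less in siMUNC than in control cells. Genes of mitosis, DNA replication and G1-S were 54 of the 236 on the higher side: they were lower in differentiating cells, by less in siMUNC than in control cells. A smaller set, led by Cldn1 and Sfrp2, was higher in differentiating siMUNC cells by more than in control cells. The median over all genes kept was 0.06, with a central 95% from -0.80 to 1.11. Among the 6892 genes left out as dim, 61 were past 2-fold higher (0.885%) and 110 lower (1.6%), or 2.48% together. Among 3062 clusters above the level without a single gene name, 51 were past 2-fold higher (1.67%) and 25 lower (0.816%). The 378 genes past 2-fold either way were 4.74% of those kept.

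**Figure D1:**
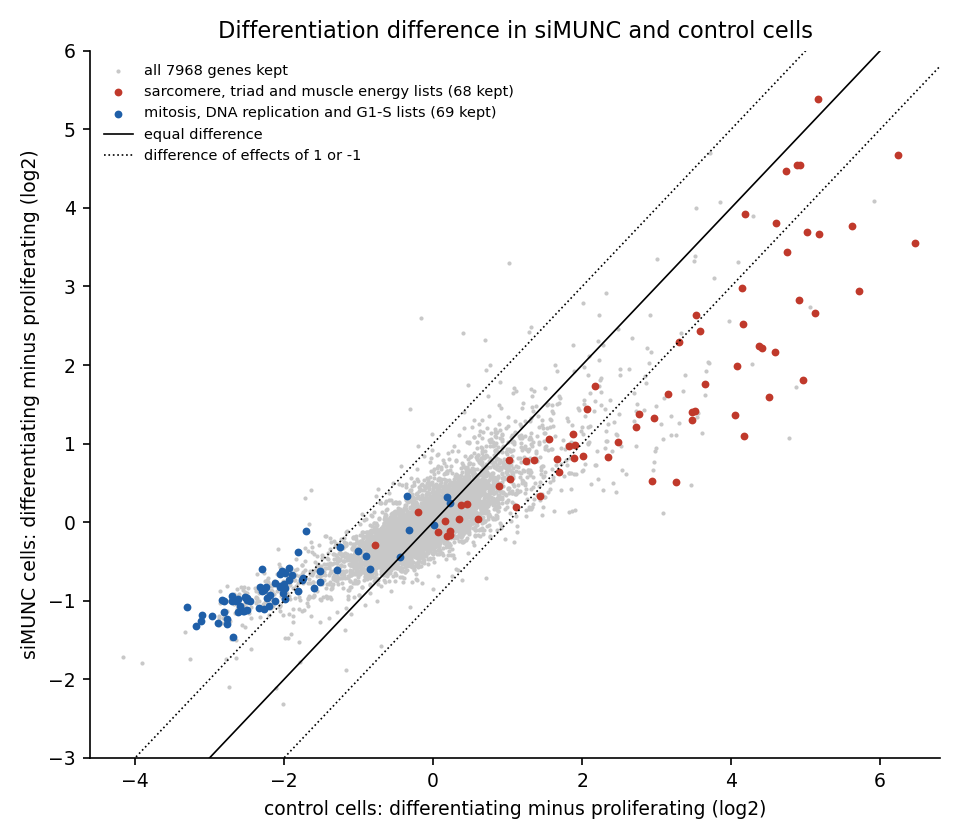
Differentiating minus proliferating log2 difference in siMUNC cells (vertical axis) against that in control cells (horizontal axis) for the 7968 genes kept, with 1 array per group. Most sarcomere, triad and muscle energy genes (red) lie to the right of 0 and below the line of equal difference, and nearly all mitosis, DNA replication and G1-S genes (blue) to the left of 0 and above it.

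Across arrays the median value ranged from 7.96 to 8.03 and the correlation between arrays over 23332 transcript clusters from 0.964 to 0.988. Of 8 muscle lineage markers, 7 read above the level of 8.50 on every array. Of 9 macrophage markers at most 1 reached it on any array and of 8 endothelial markers none did. Where 59 genes had a second transcript cluster above the level, the 2 values of the difference of effects differed by a median of 0.13, and by at most 0.42 for 90% of them. Of the 378, 2 could be compared this way: Jph2 read -1.05 and -1.23, and Iqgap3 1.16 and 0.91.

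The promoters of 5 genes are shown because they stand for the patterns that follow: Casq1 and Ankrd2 for muscle genes with a strongly negative difference of effects, Myl1 for a muscle gene with almost none, and Mki67 and Ccnb2 for cell cycle genes with a positive one. Each runs from 250 bases before to 50 after the start of the gene, from RefSeq on GRCm38.p6, read on the strand of the gene. Capitals mark the E-box CANNTG in the first 3 and CCAAT or TTTGAA, on either strand, in the last 2.
Casq1, chr1:172219846-172220145, minus strand: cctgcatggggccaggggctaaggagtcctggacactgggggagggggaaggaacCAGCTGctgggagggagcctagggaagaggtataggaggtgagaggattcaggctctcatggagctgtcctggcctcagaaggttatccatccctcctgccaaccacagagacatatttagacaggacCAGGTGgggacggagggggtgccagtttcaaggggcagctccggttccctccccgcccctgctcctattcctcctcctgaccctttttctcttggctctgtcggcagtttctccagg
Ankrd2, chr19:42035777-42036076, plus strand: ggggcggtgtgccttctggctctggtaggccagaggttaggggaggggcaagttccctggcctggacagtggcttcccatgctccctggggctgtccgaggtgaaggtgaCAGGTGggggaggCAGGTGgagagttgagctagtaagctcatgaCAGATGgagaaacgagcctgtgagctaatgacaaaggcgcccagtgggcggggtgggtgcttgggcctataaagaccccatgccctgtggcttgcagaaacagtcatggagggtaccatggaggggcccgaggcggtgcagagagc
Myl1, chr1:66945007-66945306, minus strand: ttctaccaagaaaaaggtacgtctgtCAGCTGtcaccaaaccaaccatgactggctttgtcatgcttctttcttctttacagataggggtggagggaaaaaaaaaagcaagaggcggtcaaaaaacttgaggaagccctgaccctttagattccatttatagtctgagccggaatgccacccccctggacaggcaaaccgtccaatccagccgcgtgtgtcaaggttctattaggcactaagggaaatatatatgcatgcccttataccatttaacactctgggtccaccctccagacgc
Mki67, chr7:135716330-135716629, minus strand: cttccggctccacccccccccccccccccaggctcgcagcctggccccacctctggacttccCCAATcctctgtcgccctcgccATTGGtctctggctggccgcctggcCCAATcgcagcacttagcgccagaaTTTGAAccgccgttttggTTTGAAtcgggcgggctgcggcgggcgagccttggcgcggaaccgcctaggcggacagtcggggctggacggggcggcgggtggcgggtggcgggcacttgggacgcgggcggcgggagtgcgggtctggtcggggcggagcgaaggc
Ccnb2, chr9:70421505-70421804, minus strand: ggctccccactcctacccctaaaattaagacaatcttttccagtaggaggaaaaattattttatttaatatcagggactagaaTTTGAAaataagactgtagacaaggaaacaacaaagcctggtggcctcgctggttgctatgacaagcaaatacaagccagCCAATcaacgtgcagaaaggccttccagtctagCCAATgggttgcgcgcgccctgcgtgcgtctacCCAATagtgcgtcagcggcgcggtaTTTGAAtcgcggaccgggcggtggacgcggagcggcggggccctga

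The E-box letters occurred 2 times in the Casq1 window, 3 times in that of Ankrd2 and once in that of Myl1. The Mki67 and Ccnb2 windows each held 3 CCAAT and 2 TTTGAA matches, the letters of the CHR element. Promoters were found for 185 of the 236 genes on the higher side (211 windows) and for 104 of the 142 on the lower side (146 windows). TTTGAA was present in 35.1% of windows on the higher side and 12.3% on the lower side, against 11.9% for all genes kept and 17.9% of all promoters. CCAAT was present in 52.6% and 33.6% of the same windows, against 37.8% and 37.4%. CANNTG was present in 60.7% on the higher and 78.8% on the lower side, against 62.6% and 72.3%. TATAAA was present in 8.53% and 8.9%, against 6.74% and 13.6%, and GGCGGG in 67.3% and 42.5%, against 63.9% and 35.3%. These are counts of letters in a fixed window and were not tested.

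The regulators of myogenesis come first. Myod1 read 10.70 in siMUNC differentiating and 10.96 in siMUNC proliferating cells, against 11.75 and 11.46 in control differentiating and proliferating cells. It was therefore slightly lower on differentiation in siMUNC cells (-0.25) and slightly higher in control cells (0.28), a difference of effects of -0.53. Myog, the gene of myogenin, read 10.56 and 7.45 in siMUNC differentiating and proliferating cells, against 12.21 and 8.43 in the control cells. It was 8.64-fold higher on differentiation in siMUNC cells and 13.7-fold higher in control cells, a difference of effects of -0.66. The siMUNC arrays read lower than control in both states, by 1.64 in differentiating and 0.98 in proliferating cells.

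Mef2c, a MADS-box partner of the MyoD family, was the only one of 15 measured myogenic transcription factors past 2-fold (-1.05), against 3.69% of all measured genes past 2-fold in either direction. It read 8.88 and 7.24 in siMUNC differentiating and proliferating cells, against 10.93 and 8.23 in control cells. Tead4, a TEAD factor induced during muscle differentiation, followed at -0.76, with a differentiation difference of 0.05 in siMUNC and 0.80 in control cells. Mef2d was at -0.54, Mef2b, which was dim, at -0.39, and Mef2a at -0.03. The methyltransferase gene Smyd1 was at -0.27, since it was higher on differentiation in both (2.64 in siMUNC and 2.91 in control cells). Myf6 was on the other side (0.96), from dim values of 8.46 and 7.01 in siMUNC against 8.24 and 7.75 in control cells. The difference of effects was within 0.5 for Myf5 (0.18), Pax7 (-0.12), Pax3 (-0.04, dim, and above 0 after quantile normalization or loess), Six4 (0.09), Tcf12 (0.11) and Tcf3 (0.39), the last 2 encoding E-protein partners of MyoD. The list as a whole had a median of -0.12.

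The genes that build and run the contractile apparatus lay mostly below 0. The 82 measured genes of the thick filament, thin filament, Z-disc, triad and energy lists had 39 members past 2-fold lower and none past 2-fold higher, against 1.7% and 2% of all measured genes. All but 4 of them (Myl1, Pdlim5, Asph and the dim Phkg1) were below 0, against 53.8% of all measured genes below and 46.2% above. Pdlim5 read 0.48 in the cluster used and -0.62 in its second cluster, so its direction turns with the cluster. Of the 142 genes kept on the lower side, 37 were in these lists.

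In the triad and sarcoplasmic reticulum list 10 of 22 measured genes were past 2-fold lower (median -0.75). Casq1, which encodes the calcium-binding calsequestrin of fast muscle, read 7.56 and 5.76 in siMUNC differentiating and proliferating cells, against 10.73 and 5.77 in control cells. The 2 proliferating arrays read alike, and only the control differentiating array was high: the gene was 3.5-fold higher on differentiation in siMUNC and 31.1-fold higher in control cells (difference of effects -3.16, and -2.86 with an offset of 50 on the linear scale). Cacna1s, the L-type channel subunit that senses membrane voltage, read 9.31 and 6.65 in siMUNC cells, against 11.62 and 6.49 in control cells (-2.46). Trdn, the gene of triadin, read 8.06 and 5.81 in siMUNC cells, against 10.81 and 6.43 in control cells (-2.13). Hrc, a calcium-binding protein of the reticulum lumen, was at -2.09. Other members were nearer 0, such as the release channel gene Ryr1 (-0.89) and the calcium pump gene Atp2a1, which was higher on differentiation by 4.47 in siMUNC and 4.74 in control cells (-0.27).

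Z-disc and stretch-response genes held several of the lowest values, with 8 of 19 measured past 2-fold lower (median -0.93). Hspb7, a small heat shock protein of striated muscle, read 8.45 and 7.36 in siMUNC differentiating and proliferating cells, against 11.02 and 6.84 in control cells (-3.09). Ankrd2, a stretch-responsive ankyrin repeat protein, read 9.71 and 8.11 in siMUNC cells, against 12.37 and 7.87 in control cells (-2.91). For both, the siMUNC proliferating array was no lower than the control proliferating one, while the siMUNC differentiating array was far below its control. Myoz2, a Z-disc partner of calcineurin, differed by 3.56 on differentiation in siMUNC and 6.46 in control cells (-2.90), and Smpx, a small muscle protein, by 2.94 and 5.72 (-2.78). Csrp3, the muscle LIM protein, differed by 0.51 and 3.26 (-2.76), and Actn2, the Z-disc cross-linker alpha-actinin, by 1.36 and 4.06 (-2.70).

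Among thick filament and M-band genes 7 of 10 measured were past 2-fold lower (median -1.31). Myom1, the M-band protein myomesin, read 8.25 and 6.08 in siMUNC cells, against 10.58 and 5.99 in control cells (-2.42). Mybpc2, fast myosin-binding protein C, read 7.33 and 6.8 in siMUNC cells, against 9.38 and 6.44 in control cells (-2.41). Unc45b, a myosin chaperone, was at -2.17 and the slow isoform gene Mybpc1 at -2.08. The 3 members within 2-fold were the light chain genes Mylpf (-0.38) and Myl1 (0.21) and the dim Mybpc3 (-0.30). A further light chain gene, Myl2, was past 2-fold lower (-1.31) on dim values only.

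In the thin filament list 6 of 13 measured genes were past 2-fold lower and all 13 were below 0 (median -0.85). The troponin genes spread widely. Tnnc2, the fast troponin C gene, read 11.24 and 7.47 in siMUNC cells, against 12.71 and 7.09 in control cells (-1.85). Tnni2 and Tnni1, of fast and slow troponin I, were at -1.64 and -1.51, while Tnnt3, of fast troponin T, was at -0.34 after differences of 4.55 in siMUNC and 4.89 in control cells. Nrap, an actin-anchoring scaffold protein, was at -1.64, and the skeletal actin gene Acta1 at -0.79.

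Of 18 measured muscle energy genes 8 were past 2-fold lower (median -0.74). Pygm, muscle glycogen phosphorylase, read 10.00 and 7.79 in siMUNC cells, against 12.27 and 7.86 in control cells (-2.19). Pgam2, the muscle phosphoglycerate mutase, was at -2.07, the muscle creatine kinase Ckm at -1.88 and the muscle cytochrome oxidase subunit Cox6a2 at -1.51. General respiratory chain and ATP synthase genes were nearer 0: none of 18 was past 2-fold, 17 were below 0 and the median was -0.17, with Cox4i1 (-0.44) and Uqcrfs1 (-0.42) farthest.

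Not all genes that were higher on differentiation, in muscle lists or not, followed this pattern. A mean log2 difference on differentiation of at least 2 over siMUNC and control cells was found for 94 genes kept. Of these 94, 56 were past 2-fold lower in the difference of effects and 1, Sfrp2, past 2-fold higher, against 1.78% and 2.96% of all genes kept. In 9 the difference of effects was smaller than 0.25. Myl1, the alkali myosin light chain gene, read 12.35 and 6.97 in siMUNC differentiating and proliferating cells, against 13.19 and 8.02 in control cells. It was 41.7-fold higher on differentiation in siMUNC and 36.0-fold in control cells, with siMUNC lower by a similar amount in both states (an offset of 50 on the linear scale put the difference of effects at -0.01 in place of 0.21). Mymk, the fusion protein myomaker, read 12.87 and 8.80 in siMUNC cells, against 13.65 and 9.80 in control cells (0.23).

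The acetylcholine receptor subunit gene Chrng (-0.18) and Tecrl (-0.12) were likewise lower with siMUNC in both states. For Tecrl siMUNC minus control was -1.64 in differentiating and -1.52 in proliferating cells, though an offset of 50 on the linear scale moved its difference of effects to -0.43. The proteoglycan gene Dcn (0.09), the proton pump subunit gene Atp6v0d2 (-0.03, which cyclic loess turned above 0), the aggrecanase gene Adamts5 (-0.03) and the carboxypeptidase gene Cpq (-0.17) were each higher on differentiation by at least 2 in both kinds of cell. For Atp6v0d2 and Adamts5 siMUNC and control cells read alike in both states (siMUNC minus control of 0.03 and 0.06 for Atp6v0d2 and of -0.10 and -0.07 for Adamts5, in differentiating and proliferating cells). The neuromuscular junction list had a median of -0.36 with none of 10 past 2-fold, led by Chrnb1 (-0.77) and the MuSK adaptor gene Dok7 (-0.69). The adhesion and fusion list had a median near 0 (0.005, which centring, quantile normalization, loess and the offset turned below 0), with the membrane repair gene Dysf (-1.41) the only one of 16 past 2-fold.

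**Figure D2:**
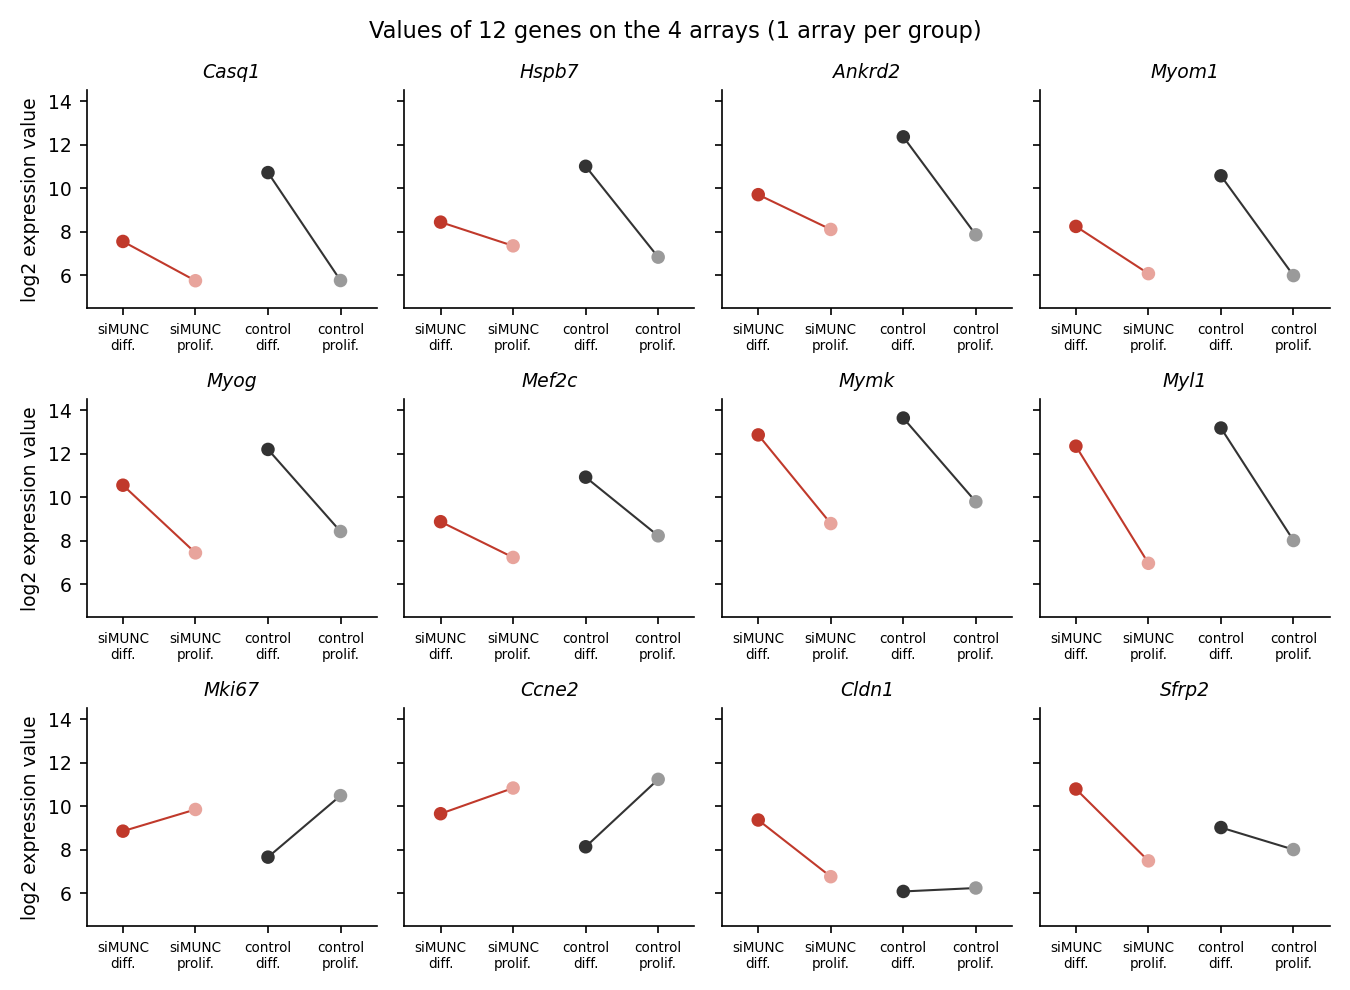
Log2 expression values of 12 genes, with siMUNC differentiating and proliferating cells at the left of each panel and control cells at the right, 1 array per point. Casq1, Hspb7, Ankrd2 and Myom1 differ chiefly between the differentiating arrays, Mymk and Myl1 are lower with siMUNC by similar amounts in both states, Mki67 and Ccne2 lie closer together in siMUNC than in control cells, and Cldn1 and Sfrp2 differ more on differentiation in siMUNC cells.

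Cell cycle genes lay above 0 in 68 of 69 measured cases. All 27 measured mitosis genes were past 2-fold higher (median 1.52), as were 21 of 27 DNA replication genes (1.23), against 2% of all measured genes. Lower on differentiation by a mean of at least 2 (log2) over siMUNC and control cells were 25 genes kept. Of these 25, 20 were past 2-fold higher in the difference of effects. Some of them were in the cell cycle lists, such as Ercc6l and Tk1, and others were not, such as Tmprss11f and Havcr2. Mki67, the proliferation marker, read 8.86 and 9.86 in siMUNC differentiating and proliferating cells, against 7.67 and 10.50 in control cells. It was 2.00-fold lower on differentiation in siMUNC and 7.10-fold lower in control cells (1.83). The siMUNC arrays lay between the control arrays: lower than control while proliferating and higher than control after the medium change.

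The same order held for the helicase gene Ercc6l, at the centromere in mitosis, which read 7.81 and 8.89 in siMUNC cells, against 5.95 and 9.25 in control cells (2.22). Cenph, a kinetochore protein, was at 1.86 and the centrosome kinase gene Nek2 at 1.80. Ccnb2, a mitotic cyclin, read 11.94 and 12.60 in siMUNC cells, against 10.86 and 12.85 in control cells (1.34). The smallest value among the 27 was that of Cdc20, an activator of the anaphase-promoting complex, at 1.17.

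Among replication genes, Tk1 (thymidine kinase) read 8.44 and 9.77 in siMUNC cells, against 7.59 and 10.77 in control cells (1.85). Orc1, of the origin recognition complex, was at 1.66, the clamp loader gene Rfc3 at 1.6 and the chromatin assembly gene Chaf1b at 1.55. Rfc3 differed on differentiation by -0.11 in siMUNC and -1.71 in control cells. A further 2 genes outside the lists that act in S phase were among the highest: Pclaf, a PCNA-binding protein (1.99), and Esco2, a cohesin acetyltransferase (1.95).

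Of 15 measured G1-S genes 6 were past 2-fold higher (median 0.77). Ccne2, cyclin E2, read 9.66 and 10.84 in siMUNC cells, against 8.14 and 11.24 in control cells (1.92). Ccnd1, cyclin D1, read 12.64 and 13.02 in siMUNC cells, against 10.88 and 12.70 in control cells (1.44). Unlike most cell cycle genes, Ccnd1 and Mybl1, a MYB-family factor (1.70), were also higher with siMUNC in proliferating cells, by 0.32 and 0.28. So were Ccnd2 (by 0.42) and Cdk4 (by 0.02), which were within 2-fold in the difference of effects. E2f7, a repressor E2F, was at 1.45. Of 14 measured inhibitors and exit genes, Cdkn1c, the p57 inhibitor, was past 2-fold lower: it read 8.23 and 8.08 in siMUNC cells, against 9.36 and 7.73 in control cells (-1.48). The pocket protein gene Rbl1 was past 2-fold higher (1.22), Cdkn1a, of p21, was at -0.57, and the list had a median of -0.09.

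**Figure D3:**
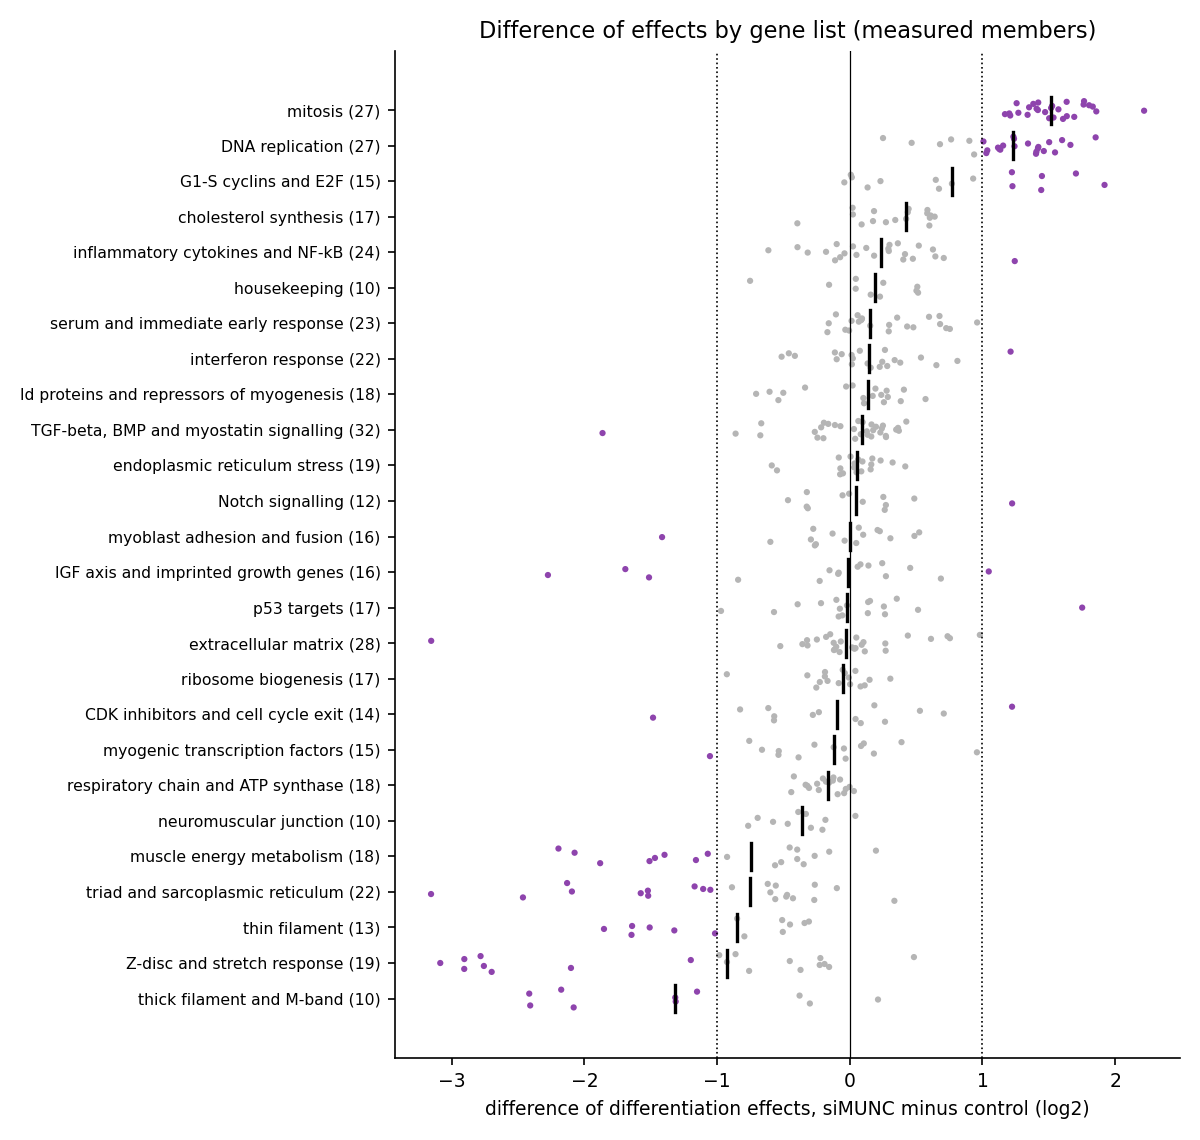
Difference of effects (siMUNC minus control, log2) for measured members of the 26 gene lists, 1 point per gene, with the number measured after each name, a bar at the median, and members past 2-fold in purple. Mitosis lies wholly to the right of 1, and the 5 sarcomere, triad and energy lists have the lowest medians.

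The make-up of the 2 sides of the distribution was as follows. On the lower side (142 genes) siMUNC minus control had a median of -1.47 in differentiating and 0.07 in proliferating cells, with 84 genes above 0 and 58 below 0 in proliferating cells. Past 2-fold lower with siMUNC in differentiating cells were 117 of the 142, where 2.2% of all genes kept were. In 141 of the 142 genes the control differentiating array was the highest of the 4. On the higher side (236 genes) siMUNC minus control had a median of 1.04 in differentiating and -0.39 in proliferating cells, where 218 genes were below 0. Past 2-fold higher with siMUNC in differentiating cells were 130 of the 236, where 2.15% of all genes kept were. The control arrays held both ends there: the highest value was on the control proliferating array for 207 genes and the lowest on the control differentiating array for 225. These contrasts share arrays with the difference of effects. The level filter keeps a gene on its highest value, and the difference of effects takes all 4 arrays. Which array is highest or lowest is therefore partly set by the selection. With a filter on the mean over the 4 arrays, 65 genes were left on the lower side. These counts describe how the members are made up and are not a test.

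The median differentiation difference was 0.97 in siMUNC and 2.49 in control cells on the lower side, and -0.86 in siMUNC and -2.19 in control cells on the higher side. In siMUNC cells 69 of the 142 genes were past 2-fold higher on differentiation, against 139 in control cells (3.3% and 5.15% of all genes kept). Past 2-fold lower on differentiation were 70 of the 236 in siMUNC cells, against 219 in control cells (1.33% and 6.49%). In siMUNC cells 136 of the 142 were above 0 on differentiation and 217 of the 236 below 0. That these differences were smaller in siMUNC than in control cells follows from how the members were chosen. On the lower side 72 of 142 genes read below the level of 8.50 on the siMUNC differentiating array, where the size of a difference depends on the background. The same limit applies to the higher side, whose median on the control differentiating array was 8.27. On that array 16 of 27 mitosis and 17 of 27 DNA replication genes were above the level. An offset of 50 on the linear scale moved Ercc6l from 2.22 to 1.62 and Cldn1 from 2.76 to 2.26. It moved the mitosis median from 1.52 to 1.38 and the DNA replication median from 1.23 to 1.13.

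**Figure D4:**
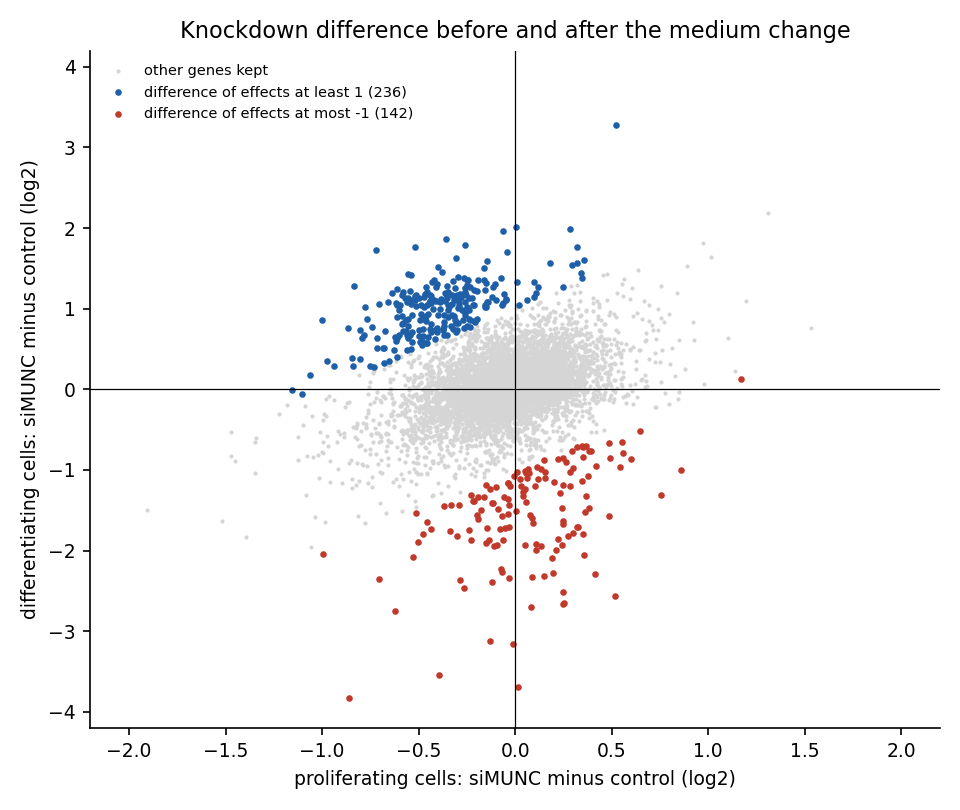
siMUNC minus control log2 difference in differentiating cells (vertical axis) against that in proliferating cells (horizontal axis) for the genes kept, with the 236 genes of the higher side in blue and the 142 of the lower side in red. The red points are spread about 0 on the horizontal axis (median 0.07), while most blue points lie left of it (median -0.39).

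On the higher side 3 genes, Rpl22, Hirip3 and Glipr1, were past 2-fold lower with siMUNC in proliferating cells, where 0.351% of all genes kept were. Rpl22, a ribosomal protein gene, read 9.27 and 8.15 in siMUNC differentiating and proliferating cells, against 9.29 and 9.31 in control cells, so its value rests on the siMUNC proliferating array. On the lower side 1 gene was past 2-fold higher with siMUNC in proliferating cells, against 0.0879% of all genes kept. It was Tmem150a, which read 10.60 and 10.25 in siMUNC cells, against 10.47 and 9.08 in control cells.

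On the higher side 19 of the 236 genes were above 0 on differentiation in siMUNC cells, and 8 of these in control cells too. Cldn1, a tight junction claudin, had the highest value of all named genes. It read 9.37 and 6.77 in siMUNC differentiating and proliferating cells, against 6.09 and 6.25 in control cells (2.76), so that only the siMUNC differentiating array was above the level of 8.50. Sfrp2, a secreted modulator of Wnt signalling, read 10.80 and 7.5 in siMUNC cells, against 9.03 and 8.02 in control cells (2.29). It was 9.86-fold higher on differentiation in siMUNC and 2.02-fold higher in control cells.

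The receptor-like gene Cd200r2 read 8.57 and 6.16 in siMUNC cells, against 6.56 and 6.16 in control cells (2.01). The p53 target Perp, a desmosomal protein, read 10.58 and 9.14 in siMUNC cells, against 8.87 and 9.18 in control cells (1.75). Here too the siMUNC differentiating array alone stood above the others. The other genes higher on differentiation in both kinds of cell and by more in siMUNC cells, named after their values were seen, were the hormone gene Stc1 (1.62), Car3, carbonic anhydrase 3 (1.27), the lipoprotein receptor gene Vldlr (1.24), the prostaglandin-degrading enzyme gene Hpgd (1.22), the matricellular protein gene Ccn3 (1.17) and Rerg (1.13). Mcpt8 (2.03) and Clca3b (2.05) were lower on differentiation in control cells (-1.72 and -1.64) and slightly higher in siMUNC cells (0.31 and 0.40).

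Growth factor genes had members at both ends. Igf2, the insulin-like growth factor of differentiating myoblasts, read 9.67 and 7.66 in siMUNC cells, against 12.07 and 7.78 in control cells (-2.27). Igf1 read 8.39 and 6.91 in siMUNC cells, against 9.36 and 6.37 in control cells (-1.51). The binding protein genes split, with Igfbp4 at -1.69 and Igfbp2 at 1.05, which centring put at 0.99 and cyclic loess also just within 2-fold. The list of 16 measured genes had a median of -0.01. Fst, which encodes the myostatin antagonist follistatin, read 9.15 and 8.74 in siMUNC cells, against 10.15 and 7.88 in control cells (-1.86), the only one of 32 TGF-beta, BMP and myostatin genes past 2-fold (median 0.09).

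Secreted and enzyme genes of no muscle list held the lowest value of all. Serpina6, corticosteroid-binding globulin, read 6.34 and 5.26 in siMUNC cells, against 10.03 and 5.25 in control cells (-3.71), and Lum, the proteoglycan lumican, read 6.84 and 5.13 in siMUNC cells, against 10.39 and 5.52 in control cells (-3.15). Lbp, the lipopolysaccharide-binding protein gene, read 7.01 and 6.90 in siMUNC cells, against 10.84 and 7.76 in control cells (-2.97). In all 3 only the control differentiating array was above the level of 8.50, so that the siMUNC side has no bright value behind it. The same held for the cytochrome P450 gene Cyp2f2 (-3.0) and the choline transporter-like gene Slc44a4 (-2.48). It also held for the muscle genes Casq1, Trdn, Hspb7, Csrp3, Actn2, Myom1, Mybpc2, Unc45b, Mybpc1 and Pgam2. Each of these passed the level filter only through the control differentiating array. With an offset of 50 on the linear scale Serpina6 moved to -3.07 and Lum to -2.90.

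Further genes on the higher side were Tmprss11f (2.45), a transmembrane protease gene, Ccdc73 (2.11) and Havcr2, an immune checkpoint receptor gene (1.93). Tmprss11f read 8.0 and 9.72 in siMUNC cells, against 6.27 and 10.44 in control cells. Ccdc73 read 6.05 and 7.84 in siMUNC cells, against 4.77 and 8.67 in control cells, and raising dim values to the 25th percentile of each array put it at 0.84.

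The remaining signalling and stress lists had medians between -0.05 and 0.42, each with at most 1 member past 2-fold in either direction. Cholesterol synthesis genes had a median of 0.42 with 16 of 17 above 0 and none past 2-fold. Lss (0.64) and Msmo1 (0.61) were farthest, and the median siMUNC minus control difference of the list was 0.00 in differentiating and -0.27 in proliferating cells. Inflammatory genes had a median of 0.24 (Ccl2 1.24), interferon response genes 0.15 (the dim Rsad2 1.21), serum and immediate early genes 0.15 (Ier2 0.96, Dusp4 0.75), and Id proteins and repressors 0.14 (Id3 -0.71, the dim Mdfi -0.60). Notch genes had a median of 0.05, which centring turned below 0, with the Notch-modifying enzyme gene Lfng past 2-fold (1.22). Unfolded protein response genes had a median of 0.05, also turned by centring (Herpud1 -0.59, Chac1 -0.55).

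The medians of p53 targets (-0.02), extracellular matrix (-0.02) and ribosome biogenesis genes were also near 0 (-0.05 for the last; Rrp12 -0.93, Polr1b -0.32). Among the matrix genes Lum was the only one of 28 past 2-fold, with the adhesion-modulating protein gene Tnc next on the other side at 0.98. Housekeeping genes had a median of 0.19, with Tfrc at -0.75 and Gusb at 0.51. Otog, the other neighbour of MUNC, was dim on all arrays (-0.48). MUNC is Gm45923 in the gene table. No cluster with a single gene name carries that name, so its level, and with it the knockdown, was not analysed here.

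Markers of other cell types were read beside these results. The reserve and satellite cell list had a median of 0.28 over 12 genes, and the muscle lineage list -0.26 over 8. In the former 8 genes were above 0, with Cd34 highest (0.95). The 4 below 0 were Pax7 (-0.12), Sdc4 (-0.18) and the dim Calcr (-0.30) and Chodl (-0.58). Smooth muscle and myofibroblast markers, of which 4 were kept, had 8 of 8 below 0 (median -0.60), against 53.8% of all measured genes. Their siMUNC minus control difference had a median of -0.05 in differentiating and 0.51 in proliferating cells. Tagln, which encodes transgelin, read 8.73 and 9.81 in siMUNC cells, against 7.97 and 8.28 in control cells (-0.77). The chondrocyte (8 of 8) and osteoblast (6 of 6) lists were also wholly below 0. Their siMUNC minus control medians in proliferating cells were 0.31 and 0.29. Of single markers, Lmod1 (-2.11, dim), Phex (-1.56) and Cldn5 (-1.07, dim) were past 2-fold lower. Lists that were mostly dim had medians of -0.51 (osteoblast), -0.34 (adipocyte, and -0.05 with dim values raised to the 25th percentile), -0.26 (fibroblast), -0.24 (chondrocyte), -0.20 (endothelial) and -0.16 (macrophage). The median was 0.06 over genes kept and -0.03 over all measured genes, so dim genes as a class lay lower than genes kept. Part of these negative medians may therefore be shared by dim genes of any kind. Summed on the linear scale, macrophage markers read 9.87 and 9.87 (log2) in siMUNC differentiating and proliferating cells, against 9.71 and 9.84 in control cells, and fibroblast markers 13.02 and 11.80, against 13.03 and 11.84. Cd68 was the only macrophage marker kept, so the rest of that sum is dim values. Col3a1, also in the matrix list, was the brightest fibroblast marker on every array. Neither sum is a measure of how many such cells were present. Any part of these cell states in the results above was not tested. Fewer cells of a state and less RNA per cell cannot be told apart in bulk RNA.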

How the data were processed

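RNA of 4 C2C12 cultures, 1 per group, was hybridised to Affymetrix whole-transcript arrays, per the labels' protocols. The deposited table holds 1 log2 value per transcript cluster and array, which the authors made in Expression Console (Affymetrix), as the submitters' processing notes state. For its version, summarization, normalization and build, nothing is given in the sources used here. The log2 scale was taken from the range of values. Of 23332 clusters, 14996 had 1 gene symbol, 1019 several and 7317 none in the platform table; 14941 of the first were found in a RefSeq gene table (GRCm38.p6), used for names only. Each of 14860 genes was read from its cluster with the highest mean. Scanner files, detection calls and scan dates were not used here.

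With 1 array per group no test was run. The members, the 26 gene lists and the 9 marker lists were chosen with earlier results of these data known. Named genes were the 15 highest and 15 lowest among genes kept (model, olfactory and vomeronasal names left out), up to 4 members of each list past 2-fold (or the 2 farthest), all myogenic transcription factors, Otog, and up to 8 genes with a mean differentiation difference of at least 2 and a difference of effects within 0.25; others were named after their values were seen. Alternatives were 3 scalings between arrays, an offset, a floor, other filters, other choices of cluster and another threshold. The arithmetic of the contrast was checked on simulated data. The noise there was assumed, so the check says nothing about the noise of these arrays. Python 3.11.15, pandas 2.3.3 and limma 3.58.1 were used.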

Additional observations from a re-analysis of the deposited data

Results flagged for a closer look

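In 17 of the 378 genes past 2-fold, the differentiating minus proliferating difference was of opposite sign in siMUNC and control cells. These differences rest on 1 array per group and were not tested. Above 0 in siMUNC and below 0 in control cells were 11 of them: Cldn1 (2.76), Clca3b (2.05), Mcpt8 (2.03), Perp (1.75), Xdh (1.17), 9930012K11Rik (1.15), Glt8d2 (1.15), Rpl22 (1.14), Raet1e (1.1), Cntln (1.05) and Tlr3 (1.03). The other 6 ran the other way: Adgrg1 (-1.42), Aif1l (-1.34), Ccl11 (-1.25), Sfrp4 (-1.18), Mustn1 (-1.17) and Fam38b (-1.13). The share of opposite signs over all genes kept was not counted. Several of the signs rest on a differentiation difference near 0 in 1 kind of cell. Examples are Rpl22 (-0.02 in control cells), Mustn1 (-0.05 in siMUNC cells) and Cntln (0.10 in siMUNC cells). Adgrg1, an adhesion G protein-coupled receptor, was the one gene that moved by more than 0.5 both ways. It read 8.98 and 9.69 in siMUNC differentiating and proliferating cells, against 10.73 and 10.02 in control cells.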

How the results depend on the processing

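No paired analysis was possible because each group has 1 array, and no array could be left out, since the difference of effects takes all 4. Centring, quantile normalization, cyclic loess, an offset of 50, a floor at the 25th percentile and other choices of cluster gave 201 to 235 genes higher and 125 to 158 lower, against 236 and 142. Of the 236 and 142, at least 201 and 125 were shared under each of these. Without the filter 297 and 252 genes were counted, and with a filter on the mean over the 4 arrays 189 and 65. At 1.5-fold the counts were 669 and 338. Of 62 named genes past 2-fold, Igfbp2 fell within 2-fold under centring and loess, Rsad2 under the offset and Ccdc73 under the floor. The 3 list medians past 2-fold stayed past it under the 7 settings tried. The median of all genes kept, 0.06, was 0.004 after centring. Signal over background is unknown, which limits sizes from dim values.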

Other observations

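A further 4 lists were drawn up after the values were seen, so their counts are descriptions. Genes of homologous recombination and the Fanconi anaemia pathway, which repair breaks and stalled forks in S phase, were above 0 in 22 of 22 measured cases, with 12 past 2-fold higher (median 1.02), against 2% of all measured genes. Rad54l (1.71), Brip1 (1.69), Brca1 (1.58) and Rad54b (1.54) were farthest. Their median differentiation difference was -0.59 in siMUNC and -1.80 in control cells.

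Condensin, cohesin and spindle kinesin genes had 10 of 16 measured past 2-fold higher (median 1.47). Condensin was mixed: the genes Ncapg2 (1.64), Smc2 (1.55), Ncaph (1.51) and Ncapd2 (1.18) were past 2-fold higher, and Smc4 (0.87), Ncapd3 (0.85) and Ncaph2 (0.38) were not. All 6 kinesins measured were past 2-fold higher, with Kif22 lowest (1.47) and Kif15 at 1.59. The cohesin genes Rad21 (0.54), Smc1a (0.32) and Smc3 (0.30), which non-dividing cells also use, were within 2-fold.

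Small heat shock proteins split as well. Hspb7 (-3.09), Hspb2 (-1.16) and Hspb8 (-1.03) were past 2-fold lower, Cryab was at -0.16 and Hspb6 at 0.59 (median of 7 measured -0.32). Of 5 secreted frizzled-related genes Sfrp2 was past 2-fold higher (2.29) and Sfrp4 past 2-fold lower (-1.18), and the other 3 were dim.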
